A study of Homo sapiens with 18 samples.

Results

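The genes described here belong to the tumor necrosis factor (TNF) and NF-kB pathway. They are 10 of the 20833 genes in the deposited table of raw counts, chosen by name with earlier results of these data known. They were sorted by role into 6 pathway components and 4 targets. The components are the receptor TNFRSF1A, the NF-kB subunits NFKB1, NFKB2 and RELB, and the inhibitors NFKBIA and TNFAIP3. The targets are ICAM1, CD83, BIRC3 and TNFAIP2. All 10 were among the 12262 genes with enough reads to be tested. RNA came from MEG-01 (Meg01), a human megakaryoblastic leukemia cell line. Cells of the genotype labelled WT, called unedited here, and cells labelled ETV6-KO, called knockout, were each transduced with a lentivirus carrying nothing further (EV, the empty vector), ETV6 or ETV6 R369W, and were harvested on day 3. ETV6 is an ETS family transcription factor that represses its targets, and R369W is an amino acid change in it. Each of the 6 groups held 3 libraries, numbered 2, 3 and 4 (unedited) or 1, 2 and 4 (knockout). Every group had received a lentivirus, and the labels do not say whether the knockout cells are 1 clone.

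TNF binds the receptor encoded by TNFRSF1A, and the signal that follows frees NF-kB, a dimer of DNA-binding subunits, from its inhibitor. NFKB1, NFKB2 and RELB encode such subunits. NFKBIA encodes the inhibitor that holds the dimer in the cytoplasm, and TNFAIP3 encodes a ubiquitin-editing enzyme (A20) that shuts the signal off. Both are also targets of NF-kB, so the pathway feeds back on itself. ICAM1 encodes an adhesion molecule bound by leukocyte integrins, CD83 a surface protein of activated leukocytes, BIRC3 an inhibitor of cell death that also acts in the pathway, and TNFAIP2 a protein first described as TNF-induced.

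Gene reads ran from 12577816 to 18927506 per library, so that 3 reads, used here as the floor of detection, stood for 0.158 to 0.239 CPM (read counts scaled to the library total). Another 34.4% to 41.6% of reads had no gene assigned. The share of reads that did not align was 0.527% to 0.809% in the 6 EV libraries and 0.279% to 0.349% in the other 12. One library of each group stood apart from the other 2 on the first principal component: replicate 4 of each unedited group, replicate 2 of knockout EV and of knockout ETV6, and replicate 1 of knockout R369W. Each was the library of its group nearest the other genotype on that component. ETV6 itself, at 96.3 ± 42.7 CPM (SD, n = 3) in unedited EV and 85.1 ± 40.7 in knockout EV, gave no check of the knockout label, since edited transcripts can still be counted. ETV6 stood at 1969 ± 354 to 2440 ± 161 CPM in the ETV6 groups and at 1692 ± 372 to 2541 ± 425 in the R369W groups (n = 3 each). Of 12 megakaryocyte markers, 6 to 8 had a mean of at least 1 CPM in each group, with PF4 at 0 reads throughout. T cell markers summed to at most 0.573 CPM in any library and fibroblast markers to at most 1.19 CPM. Epithelial markers summed to 38.1 to 92.0 CPM and endothelial markers to 93.6 to 234 CPM, with ranges that overlapped between all groups.

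With the ETV6 vector, ICAM1 and TNFRSF1A fell in both genotypes, and no other gene of the 10 passed the test. Both were also higher with R369W than with ETV6, in both genotypes. In knockout cells, against unedited cells with the same empty vector, the targets ICAM1, TNFAIP2 and CD83 and the inhibitor gene TNFAIP3 were higher. The subunit genes NFKB1, NFKB2 and RELB passed the test in none of these comparisons. The test was edgeR's quasi-likelihood test over all 18 libraries, and a gene is said to pass at a Benjamini-Hochberg adjusted p under 0.05 over all genes tested. It used no pairing by replicate number, although same-numbered unedited libraries deviated together. With that number as a block, 956 genes rather than 37 passed for ETV6 against EV in unedited cells. The comparisons share libraries with each other and are not independent.

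**Figure D1:**
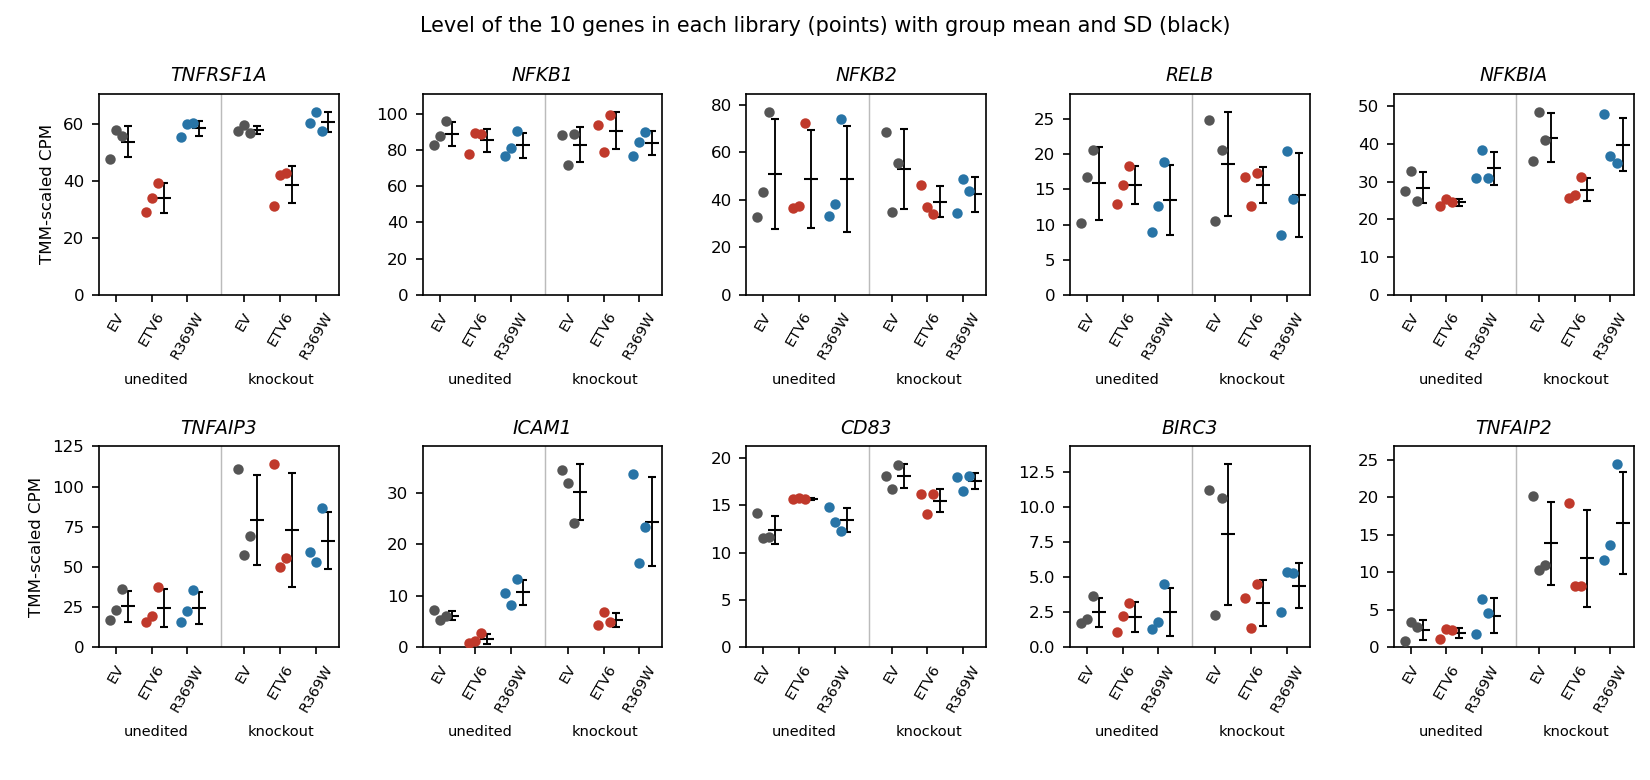
Level of the 10 genes in TMM-scaled CPM (y axis, from 0) in each of the 18 libraries, by vector and genotype (x axis); points are libraries in order of replicate number, and the black bar gives the group mean with its SD (n = 3). ICAM1 and TNFRSF1A are lowest in the ETV6 groups of both genotypes, TNFAIP3 and TNFAIP2 are higher in knockout cells, and NFKB1 stays between 71.7 and 99.2 CPM.

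Counts of genes that passed were read against the whole table. Since the 10 genes were chosen with earlier results of these data known, a count above the share of all genes is not independent support. In unedited cells, ETV6 against EV called 2 of the 10 genes lower and 0 higher, where 0.302% of all genes tested were called (0.285% lower). R369W against ETV6 called the same 2 genes higher, where 1.2% of all genes were called (1.13% higher). R369W against EV called 0 of the 10, with 1 at an unadjusted p under 0.05 (2.02% of all genes), where 0.0245% of all genes were called. In knockout cells, ETV6 against EV called 2 of the 10 lower, where 1.83% of all genes were called (1.57% lower). R369W against ETV6 called 2 higher, where 1.23% of all genes were called (1.07% higher), and R369W against EV called 0, also at an unadjusted p under 0.05 (13.8% of all genes), where 0.0571% of all genes were called. Between the genotypes with EV, 4 of the 10 were higher in knockout cells and 0 lower, where 4.33% of all genes were called (3.31% higher).

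Separation of the libraries was counted in the same way, as the genes for which all 3 libraries of a group lay on one side of all 3 of the other. In unedited cells this held for 3 of the 10 genes in ETV6 against EV (8.84% of all genes tested), for 1 in R369W against EV (6.96%) and for 4 in R369W against ETV6 (12.8%). In knockout cells it held for 4 of the 10 in ETV6 against EV (21.1%), for 0 in R369W against EV (18.7%) and for 4 in R369W against ETV6 (16.3%). Between the genotypes with EV it held for 5 of the 10 (22.5%).

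The targets and the components differed in their medians between the genotypes. The median log2 fold change of knockout against unedited cells with EV was 1.98 over the 4 targets and 0.17 over the 6 components, beside -0.00 over all genes tested. With ETV6 against EV the medians were -0.24 for targets and -0.07 for components in unedited cells, against -0.79 and -0.35 in knockout cells, beside 0.01 and -0.00 over all genes. With R369W against EV the unedited medians were 0.45 and -0.07, and those of knockout cells -0.17 and -0.16. Over 17 further targets, from the pathway lists given below, the median was 0.23 between the genotypes with EV. With ETV6 against EV it was -0.003 in unedited and 0.32 in knockout cells, and with R369W against EV 0.11 and 0.05. The 4 targets thus do not stand for targets of NF-kB at large. NFKBIA and TNFAIP3, counted as components, are also targets. These medians are descriptions of short lists, chosen with earlier results known.

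**Figure D2:**
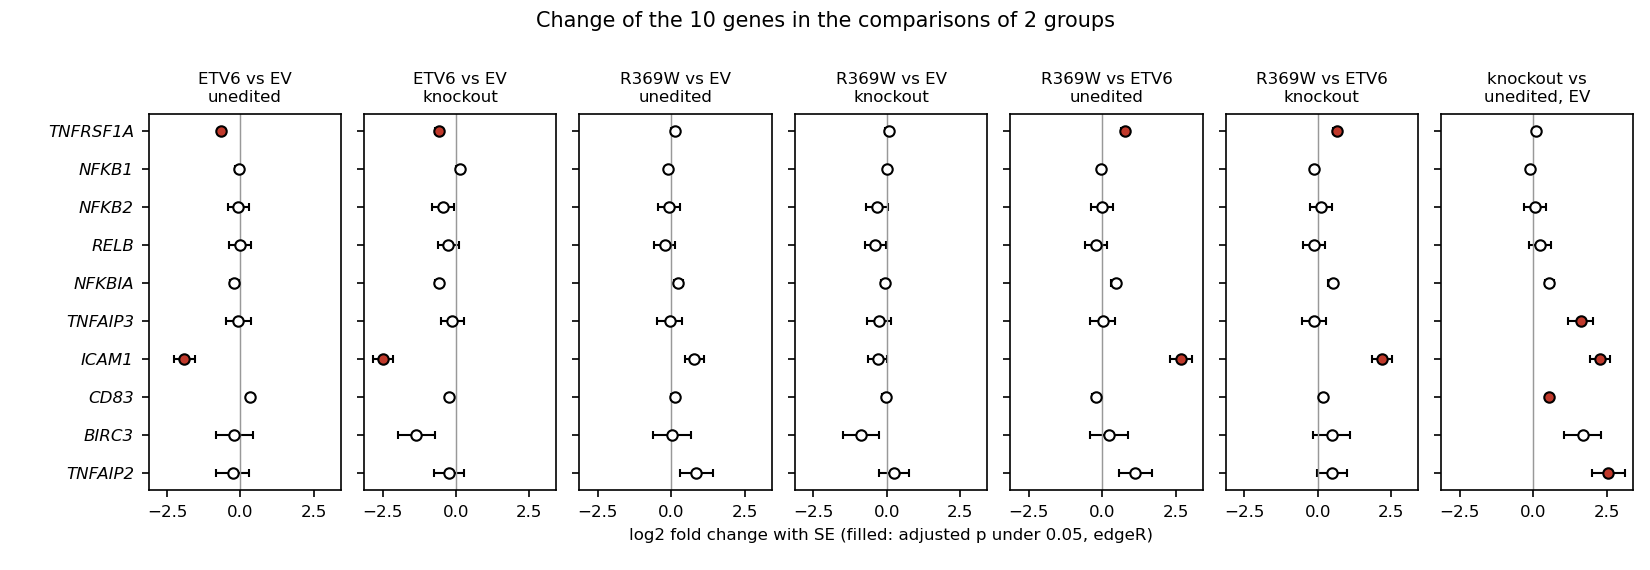
Log2 fold change (x axis) of each of the 10 genes (y axis) with its SE in 7 comparisons of 2 groups, 1 panel each. The SE was derived from the F statistic of the test. Filled points passed an adjusted p under 0.05 in edgeR's quasi-likelihood test. ICAM1 and TNFRSF1A are the filled genes in the 4 panels that set ETV6 against EV or R369W, and no point is filled in the 2 panels of R369W against EV.

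TNFRSF1A (ENSG00000067182, chromosome 12, 6328757 to 6342114 on the minus strand of GRCh38) is the receptor of the group. In unedited cells it stood at 47.6, 58.1 and 55.8 CPM with EV, at 29, 34.0 and 39.4 with ETV6, and at 55.4, 59.9 and 60.4 with R369W (replicates 2, 3 and 4). In knockout cells it stood at 57.6, 59.6 and 57.0 CPM with EV, at 31.4, 42.2 and 42.8 with ETV6, and at 60.5, 64.3 and 57.6 with R369W (replicates 1, 2 and 4). The ETV6 libraries lay below all EV and R369W libraries of the same genotype, and the EV and R369W libraries overlapped. TNFRSF1A fell 1.58-fold with ETV6 in unedited cells (log2 fold change -0.66, SE 0.13, adjusted p = 0.0413) and 1.5-fold in knockout cells (-0.58, SE 0.13, adjusted p = 0.0254). It was 1.71-fold higher with R369W than with ETV6 in unedited cells (0.78, SE 0.13, adjusted p = 0.00387) and 1.57-fold higher in knockout cells (0.65, SE 0.13, adjusted p = 0.0166). R369W against EV gave 0.12 in unedited cells and 0.07 in knockout cells, neither past the test. In these bulk samples fewer cells that express a gene and less RNA per cell cannot be told apart.

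The calls on TNFRSF1A were lost in several alternatives. Fitted on the compared groups alone all 4 were lost, with adjusted p = 0.472 for ETV6 against EV and 0.0851 for R369W against ETV6 in unedited cells, and 0.112 and 0.161 for the same pairs in knockout cells. Leaving out unedited EV replicate 3 or 4, or ETV6 replicate 2 or 3, also ended the call of ETV6 against EV in unedited cells (adjusted p = 0.129 to 0.273). In knockout cells the same held without any 1 of the EV libraries or without ETV6 replicate 1 (0.0742 to 0.117), and for R369W against ETV6 without ETV6 replicate 1 or R369W replicate 2 (0.0742 and 0.0768). With the replicate block over the 9 knockout libraries both knockout calls were lost (adjusted p = 0.109 for ETV6 against EV and 0.105 for R369W against ETV6). That fit used numbers of the R369W libraries that do not pair them. With the block in the 6 knockout EV and ETV6 libraries alone, the call of ETV6 against EV was kept, in a fit that called 2904 genes. The block also kept both unedited calls, in fits that called 956 and 1980 genes. Without the 6 libraries that stood apart, 3 of the 4 calls were lost, with adjusted p = 0.160 for ETV6 against EV in unedited cells, 0.0931 for the same pair in knockout cells and 0.0850 for knockout R369W against ETV6.

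The stretch upstream of TNFRSF1A is shown because its RNA fell with ETV6, an ETS factor. Sequence came from RefSeq's promoter table (GRCh38.p14), which held 9 of the 10 genes, all but RELB. Each window covers the 250 bases before a start site, searched on both strands for the ETS core GGAA, for the longer ETS site CGGAAGT and for the NF-kB consensus. The ETS core was in 92.7% of 35116 windows of that length, the longer site in 5.69% and the NF-kB consensus in 9.96%. The ETS core letters can fall inside the NF-kB consensus and inside the longer ETS site. TNFRSF1A held 2 ETS core positions, where the median window held 3, and no match to the other motifs. The stretch printed here (chr12:6342115-6342326, minus strand, bases -250 to -39 from the start site) holds 1 of the 2. Capitals mark the ETS core on either strand.
TNFRSF1A: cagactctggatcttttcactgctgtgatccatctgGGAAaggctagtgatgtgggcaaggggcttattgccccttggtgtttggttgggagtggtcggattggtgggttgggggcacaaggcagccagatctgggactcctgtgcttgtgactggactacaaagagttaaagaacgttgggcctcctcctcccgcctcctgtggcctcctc

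ICAM1 (ENSG00000090339, chromosome 19, 10270835 to 10286615 on the plus strand) changed most with the vector among the 10 genes. In unedited cells it stood at 7.18, 5.31 and 6.09 CPM with EV, at 0.901, 1.21 and 2.79 with ETV6, and at 10.5, 8.31 and 13.2 with R369W (replicates 2, 3 and 4). In knockout cells it stood at 34.5, 31.9 and 24.1 CPM with EV, at 4.38, 6.90 and 4.84 with ETV6, and at 33.6, 16.3 and 23.4 with R369W (replicates 1, 2 and 4). In unedited cells the order was R369W above EV above ETV6 without overlap, and in knockout cells EV and R369W overlapped and both lay above ETV6. The lowest group, unedited ETV6, held 64 ICAM1 reads over its 3 libraries.

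ICAM1 fell 3.76-fold with ETV6 in unedited cells (log2 fold change -1.91, SE 0.37, adjusted p = 0.0413) and 5.61-fold in knockout cells (-2.49, SE 0.35, adjusted p = 0.00091). It was 6.47-fold higher with R369W than with ETV6 in unedited cells (2.69, SE 0.37, adjusted p = 0.00105) and 4.54-fold higher in knockout cells (2.18, SE 0.34, adjusted p = 0.00327). Knockout cells with EV had 4.87-fold more ICAM1 than unedited cells with EV (2.28, SE 0.34, adjusted p = 0.00108). R369W against EV gave 0.78 (SE 0.34) in unedited cells, with an unadjusted p of 0.0342 and an adjusted p of 1.00, and -0.31 (SE 0.32) in knockout cells. Same-numbered unedited libraries deviated together, and a fit blocked by that number put the unedited difference past the test at the same size (0.78, adjusted p = 0.0336).

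The ICAM1 calls in knockout cells and between the genotypes with EV were kept in all alternatives run. In unedited cells, ETV6 against EV was lost on the compared groups alone (adjusted p = 0.561), in limma-voom (0.377), and without any 1 of the EV libraries or without ETV6 replicate 2 or 3 (0.0915 to 0.268). Without ETV6 replicate 4, the highest of its group, the adjusted p was 0.0117 and the log2 fold change -2.54, and that of R369W against ETV6 was 3.32. These were the largest changes when 1 library was left out, and the smallest were -1.63 and 2.41. R369W against ETV6 in unedited cells was lost only on the compared groups alone (0.0851).

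Markers of another cell type moved beside ICAM1. The 6 monocyte and macrophage markers summed to 265 to 383 CPM with EV, 209 to 244 with ETV6 and 330 to 419 with R369W in unedited cells, and to 157 to 319, 92.7 to 187 and 147 to 322 in knockout cells. CD68 and LYZ made up nearly all of these sums: CD14 stayed at or under 0.698 CPM in every library and FCGR3A at 0 reads in 5 of the 6 groups. MRC1 and CSF1R stayed at or under 2.46 and 2.13 CPM, with more reads in knockout EV (48 and 38) than in unedited EV (24 and 3). The sum was lowest with ETV6, as ICAM1 was, but it was not higher in knockout than in unedited cells, where ICAM1 was. Its part in the ICAM1 result was not tested. ICAM1 overlaps 2 antisense genes of the annotation, neither of them in the count table, and no source used here gives the strand setting of the counting.

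The annotated transcript of ICAM1 extends across its whole window, so that only 30-base sites are shown. The window held 7 ETS core positions, where the median window held 3. It held no match to the longer ETS site or to the NF-kB consensus as searched. The marked stretch of site 1 and the base after it differ from the NF-kB match printed for NFKBIA only in that last base. The search therefore does not show that ICAM1 lacks an NF-kB site. The sites below run from -196 to -167 (chr19:10270924-10270953, plus strand) and from -121 to -92 (chr19:10270999-10271028, plus strand) before the RefSeq start site, and capitals mark the ETS core on either strand.
ICAM1 site 1: gctttagcttGGAAaTTCCggagctgaagc
ICAM1 site 2: tccGGAAataactgcagcatttgTTCCgga

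The log2 fold change of ICAM1 with ETV6 in knockout cells minus that in unedited cells was -0.58 (SE 0.50), a difference that did not pass (unadjusted p = 0.267). For TNFRSF1A that difference was 0.07 (SE 0.18). The difference in the R369W effect on ICAM1 was -1.09 (SE 0.47), with an unadjusted p of 0.0339 and an adjusted p of 1.00. None of the 10 genes passed either test of a difference between the genotypes, where 0.0245% of all genes tested were called for the ETV6 effect and 0.0408% for the R369W effect.

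ICAM1 also differed between the genotypes under the other vectors, in comparisons added after the levels had been seen. With ETV6, knockout cells had 3.26-fold more ICAM1 (log2 fold change 1.71, SE 0.37, adjusted p = 0.0258) and 6.08-fold more TNFAIP2 (2.60, SE 0.57, adjusted p = 0.0260), the 2 genes of the 10 that passed, where 2.53% of all genes were called (1.82% higher). Both calls were lost on the compared groups alone (0.176 and 0.0711) and in limma-voom (0.129 and 0.0952). Without unedited ETV6 replicate 4 the ICAM1 log2 fold change was 2.33, the highest when 1 library was left out, and the lowest was 1.42. Leaving out 1 library ended the ICAM1 call in 4 of 6 cases and the TNFAIP2 call in 4 of 6. With ETV6, 4 of the 10 genes had separate libraries (22.7% of all genes). With R369W, 0 of the 10 passed, where 4.18% of all genes were called: ICAM1 gave 1.19 (SE 0.33, adjusted p = 0.0558) and TNFAIP2 1.96 (SE 0.54, adjusted p = 0.0539), each with all 3 knockout libraries above all 3 unedited ones. There, too, 4 of the 10 had separate libraries (22.5%). In DESeq2 those 4 passed in the R369W comparison, ICAM1, TNFAIP2, TNFAIP3 and CD83. DESeq2 called 1010 of all genes there, where the reported fit called 513. With the replicate block TNFAIP2 (adjusted p = 0.00687) and TNFAIP3 (0.0162) passed in that comparison, where 1591 of all genes passed. That block used numbers of the knockout R369W libraries that do not pair them.

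**Figure D3:**
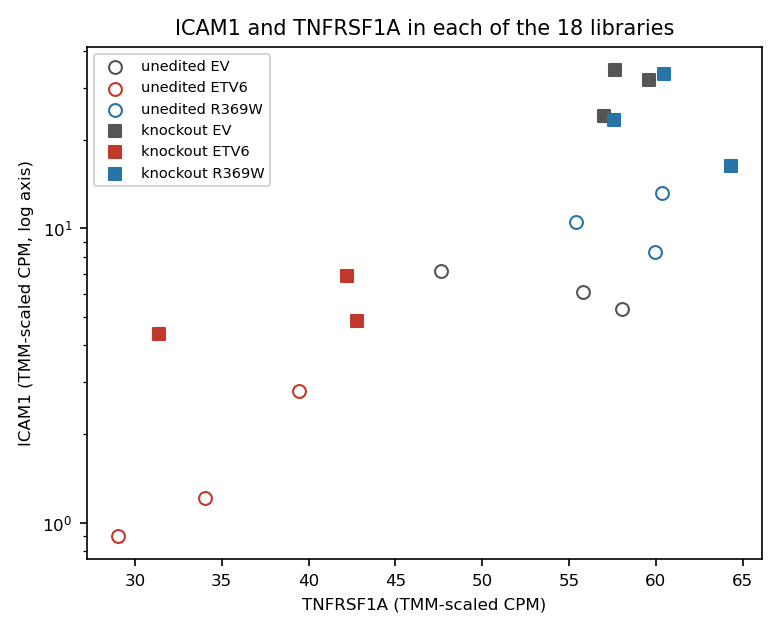
ICAM1 (y axis, TMM-scaled CPM, log axis) against TNFRSF1A (x axis, TMM-scaled CPM) in each of the 18 libraries; open circles are unedited and filled squares knockout cells, with color for the vector. The 6 ETV6 libraries lie at or below 42.8 CPM of TNFRSF1A and the other 12 at or above 47.6, and within each vector the knockout libraries lie above the unedited ones in ICAM1.

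Across the 18 libraries the log2 CPM of ICAM1 correlated with that of NFKBIA (Pearson r = 0.83), TNFRSF1A (0.83), TNFAIP2 (0.65), TNFAIP3 (0.57), BIRC3 (0.52), CD83 (0.37), NFKB2 (0.12), RELB (-0.05) and NFKB1 (-0.22). The libraries share groups and depth, and these values are descriptions. Of the 10747 genes compared, those most like ICAM1 were TGOLN2 (r = 0.96), STAC3 (0.95), ZBTB8A (0.94), SCN9A (0.92) and PDE1B (0.92). STAC3, for instance, had mean levels of 4.82, 1.74 and 8.63 CPM in unedited cells with EV, ETV6 and R369W and of 13.1, 3.85 and 13.9 in knockout cells. Those most like TNFRSF1A were NCF4 (0.95), RINL (0.94), ARHGAP27 (0.92), CEMIP2 (0.92) and IFIT3 (0.92), and RINL fell from 26.6 to 5.98 CPM on average between EV and ETV6 in unedited cells and from 38.1 to 6.53 in knockout cells, values given without a test.

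Among the subunit genes, NFKB1 (ENSG00000109320, chromosome 4, 102501329 to 102617302) encodes the p105 precursor of the p50 subunit. Its group means ran from 82.6 ± 7.04 CPM in unedited R369W to 90.7 ± 10.3 in knockout ETV6 (SD, n = 3). Its log2 fold changes in the 7 comparisons lay between -0.11 and 0.13 with SEs of 0.11, and the libraries of all groups overlapped. NFKB1 had the flattest profile of the 10 genes.

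NFKB2 (ENSG00000077150, chromosome 10, 102394110 to 102402529) encodes the p100 precursor of the p52 subunit of the noncanonical pathway. Its levels were 32.8, 43.2 and 77.0 CPM with EV, 36.4, 37.4 and 72.3 with ETV6, and 33.3, 38.4 and 74.2 with R369W in unedited cells (replicates 2, 3 and 4). In knockout cells they were 68.5, 35.0 and 55.5 CPM with EV, 46.4, 37.1 and 34.1 with ETV6, and 34.4, 48.6 and 43.9 with R369W (replicates 1, 2 and 4). Replicate 4 was the highest in all 3 unedited groups, so the spread within groups was larger than any difference between vectors there. In knockout cells ETV6 against EV gave -0.44 (SE 0.37, adjusted p = 0.707). In the 6 knockout EV and ETV6 libraries alone, whose numbers also deviated together, a fit with the replicate block gave -0.41 and passed (adjusted p = 0.0299).

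RELB (ENSG00000104856, chromosome 19, 45001430 to 45038198) encodes the partner of p52. Its group means ran from 13.5 ± 5.01 CPM in unedited R369W to 18.7 ± 7.37 in knockout EV (SD, n = 3), with libraries between 8.55 and 24.9 CPM that overlapped between all groups. It passed in no comparison. Replicate 4 was the highest in all 3 unedited groups for RELB too, and likewise for TNFAIP3 and BIRC3, while the knockout library that stood apart was the lowest of its group in all 3 vectors for RELB, BIRC3, NFKB1 and TNFAIP2. Without the 6 libraries that stood apart, NFKB2 was higher in knockout than in unedited cells with EV (log2 fold change 0.71, adjusted p = 0.0296), as was BIRC3 (2.52, adjusted p = 0.0015). The libraries left out were those nearest the other genotype on the first component. Leaving them out by itself sets the genotypes further apart, so these calls are not independent support.

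NFKBIA (ENSG00000100906, chromosome 14, 35401511 to 35404749 on the minus strand) encodes IkB-alpha. Unedited libraries stood at 27.5, 32.8 and 24.8 CPM with EV, at 23.4, 25.5 and 24.5 with ETV6, and at 31.0, 38.4 and 31.0 with R369W. Knockout libraries stood at 35.4, 48.4 and 41.1 CPM with EV, at 25.7, 26.5 and 31.3 with ETV6, and at 47.9, 36.7 and 34.8 with R369W. The order of its group means followed that of ICAM1 with a smaller range: within each genotype the ETV6 libraries lay below all R369W libraries, and in knockout cells also below all EV libraries. NFKBIA passed in none of the 7 comparisons, with 0.55 (SE 0.15, adjusted p = 0.0531) for knockout against unedited cells with EV and -0.58 (SE 0.15, adjusted p = 0.0719) for ETV6 against EV in knockout cells. DESeq2 called both (adjusted p = 0.0176 and 0.0230). With the replicate block it passed in R369W against ETV6 in unedited cells (0.45, adjusted p = 0.00134), in knockout against unedited cells with EV (0.65, adjusted p = 0.0234) and, in the 6 knockout EV and ETV6 libraries alone, in ETV6 against EV (-0.57, adjusted p = 0.00151). The block between the genotypes used numbers of the knockout R369W libraries that do not pair them.

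TNFAIP3 (ENSG00000118503, chromosome 6, 137867188 to 137883312) encodes A20. Its level in unedited cells was 17.2, 23.5 and 36.2 CPM with EV, 16.1, 19.2 and 37.7 with ETV6, and 16.0, 22.5 and 35.5 with R369W. Its level in knockout cells was 111, 57.2 and 69.3 CPM with EV, 114, 49.7 and 55.8 with ETV6, and 59.4, 53.0 and 86.8 with R369W. All 9 knockout libraries lay above all 9 unedited libraries, and the vectors overlapped within each genotype. With EV, TNFAIP3 was 3.08-fold higher in knockout cells (log2 fold change 1.62, SE 0.42, adjusted p = 0.0423). With ETV6 the difference was 1.58 (SE 0.42, adjusted p = 0.0635) and with R369W 1.43 (SE 0.42, adjusted p = 0.0699). Both passed in DESeq2 (adjusted p = 0.00422 and 0.0106), with the replicate block (0.0169 and 0.0162) and without the 6 libraries that stood apart (0.00674 and 0.0138). The last of these fits leaves out the libraries nearest the other genotype on the first component and is not independent support. The blocked fit between the genotypes used numbers of the knockout R369W libraries that do not pair them. The EV call was lost on the compared groups alone (0.0780) and without unedited EV replicate 2 or 3 or knockout EV replicate 1 or 4 (0.0846 to 0.194). An antisense gene that overlaps TNFAIP3 is not in the count table.

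The windows of both inhibitor genes held the NF-kB consensus, 1 position in NFKBIA and 2 in TNFAIP3, and they are shown because these genes are known feedback targets. The site of NFKBIA lies from -91 to -62 (chr14:35404811-35404840, minus strand) and that of TNFAIP3 from -71 to -42 (chr6:137867188-137867217, plus strand). Capitals mark the NF-kB consensus, which in each case includes the letters of the ETS core. Over the 9 genes with a window, 6 held the consensus in at least 1 window (NFKB1, NFKB2, NFKBIA, TNFAIP3, CD83 and BIRC3), all 9 held the ETS core and 0 the longer ETS site.
NFKBIA: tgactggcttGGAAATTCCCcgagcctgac
TNFAIP3: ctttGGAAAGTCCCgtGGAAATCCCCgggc

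TNFAIP2 (ENSG00000185215, chromosome 14, 103123442 to 103137439) was the target with the largest difference between the genotypes. TNFAIP2 in unedited cells stood at 0.907, 3.41 and 2.71 CPM with EV, at 1.15, 2.41 and 2.26 with ETV6, and at 1.72, 6.41 and 4.58 with R369W. TNFAIP2 in knockout cells stood at 20.2, 10.4 and 11.0 CPM with EV, at 19.3, 8.13 and 8.19 with ETV6, and at 11.7, 13.6 and 24.4 with R369W. All 9 knockout libraries lay above all 9 unedited libraries, and the ETV6 and EV libraries overlapped within each genotype. With EV, knockout cells had 5.90-fold more TNFAIP2 (log2 fold change 2.56, SE 0.56, adjusted p = 0.0159). ETV6 against EV gave -0.27 (SE 0.57) in unedited and -0.23 (SE 0.51) in knockout cells, neither past the test. The genotype call was lost on the compared groups alone (0.0645) and without unedited EV replicate 2 or 4 or knockout EV replicate 1 (0.0509 to 0.0812).

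With the replicate block, TNFAIP2 was higher with R369W than with EV in unedited cells (0.84, adjusted p = 0.0497) and than with ETV6 (1.10, adjusted p = 0.00251). Without the block these differences were 0.85 (SE 0.55) and 1.12 (SE 0.56), neither past the test. The TNFAIP2 window held 4 ETS core positions, where the median window held 3, and no match to the other motifs. The stretch from -250 to -20 (chr14:103123211-103123441, plus strand) holds 3 of the 4, in capitals.
TNFAIP2: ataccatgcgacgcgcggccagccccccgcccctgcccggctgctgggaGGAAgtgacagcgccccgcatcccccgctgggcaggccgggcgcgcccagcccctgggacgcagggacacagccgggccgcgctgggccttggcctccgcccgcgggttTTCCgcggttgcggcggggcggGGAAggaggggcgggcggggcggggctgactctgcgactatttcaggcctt

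CD83 (ENSG00000112149, chromosome 6, 14117256 to 14136918) varied over a narrow range. In unedited cells it stood at 14.1, 11.5 and 11.6 CPM with EV, at 15.7, 15.8 and 15.6 with ETV6, and at 14.8, 13.2 and 12.3 with R369W. In knockout cells it stood at 18.1, 16.8 and 19.3 CPM with EV, at 16.2, 14.1 and 16.1 with ETV6, and at 18.0, 16.6 and 18.1 with R369W. With EV, CD83 was 1.45-fold higher in knockout cells (log2 fold change 0.54, SE 0.12, adjusted p = 0.0144). All 3 ETV6 libraries lay above all 3 EV libraries in unedited cells and below them in knockout cells, with log2 fold changes of 0.33 (SE 0.12) and -0.22 (SE 0.12), neither past the test. The difference between these effects was -0.55 (SE 0.16), with an unadjusted p of 0.004 and an adjusted p of 1.00. The share of all genes whose 3 ETV6 libraries lay above the 3 EV libraries was 4.15% in unedited cells, and the share below was 11.7% in knockout cells. The genotype call was lost on the compared groups alone (0.134) and without unedited EV replicate 3 or 4 or knockout EV replicate 1 or 4 (0.0519 to 0.0758).

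BIRC3 (ENSG00000023445, chromosome 11, 102317450 to 102339403) encodes the ubiquitin ligase cIAP2. BIRC3 in unedited cells stood at 1.74, 2.05 and 3.69 CPM with EV, at 1.06, 2.26 and 3.17 with ETV6, and at 1.31, 1.82 and 4.50 with R369W. BIRC3 in knockout cells stood at 11.2, 2.28 and 10.6 CPM with EV, at 3.55, 1.38 and 4.54 with ETV6, and at 2.54, 5.36 and 5.27 with R369W. Knockout EV replicate 2, the library of that group that stood apart, was within the unedited range, and the other 2 were above every other library. The difference between the genotypes with EV was 1.68 (SE 0.63, adjusted p = 0.163), and ETV6 against EV in knockout cells gave -1.35 (SE 0.63, adjusted p = 0.395). In the 6 knockout EV and ETV6 libraries alone, the replicate block gave -1.32 for the latter (adjusted p = 0.000508), so that 5 of the 10 genes were lower with ETV6 in that fit, ICAM1, TNFRSF1A, NFKBIA, NFKB2 and BIRC3. That fit called 2904 of all genes, 1631 of them lower. The BIRC3 window held the NF-kB consensus at 2 positions, and the site from -209 to -180 (chr11:102317275-102317304, plus strand) is shown with it in capitals.
BIRC3: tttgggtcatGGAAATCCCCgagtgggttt

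Erythroid and B cell markers differed between the genotypes, beside the genes that were higher in knockout cells. The 7 erythroid markers summed to 885 to 2075 CPM in the 9 unedited libraries and to 297 to 982 in the 9 knockout libraries. The 5 B cell markers summed to 1.51 to 2.65 CPM in unedited EV and to 11.0 to 16.6 in knockout EV, with CD79A at 9.42 to 15.5 CPM there and MS4A1 at 0 reads in all groups. The 12 megakaryocyte markers summed to 1422 to 1685 CPM in unedited EV and to 1561 to 1948 in knockout EV. Among them FLI1 stood at 51.0 to 96.0 CPM in unedited EV and 137 to 233 in knockout EV. With ETV6 it stood at 35.6 to 74.8 and 79.2 to 159. GATA1 stood at 181 to 242 CPM in unedited EV and 120 to 189 in knockout EV. The part of all these markers in the difference between the genotypes was not tested.

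Levels were compared between genes only as RPKM, which is CPM divided by the summed exon length in kilobases. In unedited EV the order of the means was NFKB1 (14.2 RPKM), TNFRSF1A (13.4), NFKBIA (12.0), NFKB2 (11.4), RELB (5.23), TNFAIP3 (5.08), CD83 (4.94), ICAM1 (1.67), TNFAIP2 (0.466) and BIRC3 (0.331). In that group NFKB2, CD83 and ICAM1 lay above the next gene in all libraries, and other neighbors overlapped. In knockout EV the order was NFKBIA (17.5), TNFAIP3 (15.7), TNFRSF1A (14.5), NFKB1 (13.3), NFKB2 (11.8), ICAM1 (8.14), CD83 (7.18), RELB (6.15), TNFAIP2 (2.76) and BIRC3 (1.07). There TNFRSF1A and TNFAIP2 lay above the next gene in all libraries. TNFAIP3 moved from the sixth place to the second, and ICAM1 from the eighth to the sixth. BIRC3 was the lowest in all 6 groups.

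**Figure D4:**
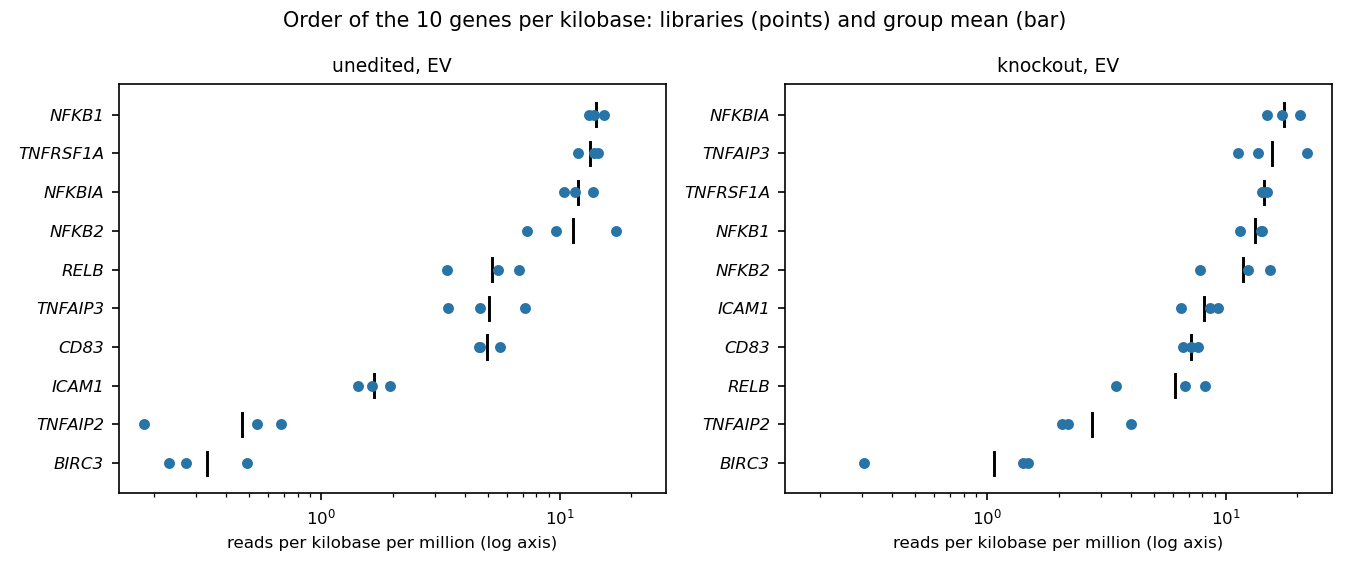
Level per kilobase of the 10 genes (y axis, ordered by the mean) in RPKM (x axis, log axis) in unedited and knockout cells with EV; points are the 3 libraries and the bar is their mean. NFKB1, NFKB2 and TNFRSF1A have means between 11.4 and 14.5 RPKM in both genotypes, RELB has lower ones, and TNFAIP3 and ICAM1 stand higher in the order in knockout cells.

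The other genes of the pathway were taken from lists of ligands, receptors, adaptors and enzymes, further subunits and inhibitors, and further targets. These lists, too, were chosen with earlier results of these data known. Of 107 such genes, 106 were in the count table and 75 were tested. TNF had 1 read in all 18 libraries, and 11 of the 15 TNF family ligands were too low to test, as were the targets VCAM1, SELE, CXCL10 and CCL5. ETV6 against EV called 0 of the 75 in either genotype, where 0.302% of all genes tested were called in unedited and 1.83% in knockout cells. At an unadjusted p under 0.05 there were 8 in unedited cells (4.58% of all genes tested) and 15 in knockout cells (12.4%). R369W against EV also called 0 in either genotype, where 0.0245% and 0.0571% of all genes were called. There, 3 (2.02%) and 14 (13.8%) had an unadjusted p under 0.05. With such low shares, 0 of 75 does not show that these genes were unchanged.

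In unedited cells 4 of the 75 were higher with R369W than with ETV6 and 0 lower, where 1.13% of all genes tested were called higher. TNFSF10, which encodes the death ligand TRAIL, was 12.0-fold higher (13.4 ± 7.53 against 1.09 ± 0.523 CPM, SD, n = 3, adjusted p = 0.0115). The interleukin-1 receptor subunit gene IL1RAP was 2.10-fold higher (adjusted p = 0.0152), the receptor gene CD40 1.43-fold (0.0308) and TNFAIP8 1.53-fold (0.0495). In knockout cells 1 of the 75 was higher and 0 lower, where 1.07% of all genes were called higher. It was TNIP1, whose product binds A20 (1.34-fold, adjusted p = 0.0476). These calls were fragile: of 13 alternatives run, 6 kept that of TNFSF10, 7 that of IL1RAP, 4 that of CD40, 5 that of TNFAIP8 and 2 that of TNIP1.

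Between the genotypes with EV, 7 of the 75 were higher in knockout cells and 2 lower, where 4.33% of all genes tested were called (3.31% higher). IL1R1, the receptor of interleukin-1, was 24.4-fold higher (158 ± 38.9 against 6.41 ± 2.75 CPM, SD, n = 3, adjusted p = 2.0e-05). TNFSF10 was 10.8-fold higher (log2 fold change 3.44, adjusted p = 0.00411), and without unedited EV replicate 3 its log2 fold change was 4.39. TNFAIP8 was 2.03-fold higher (adjusted p = 0.000535). The lower genes were CFLAR, which encodes an inhibitor of caspase-8 activation (1.61-fold, adjusted p = 0.0082), and TNFRSF10A, a receptor of TRAIL (1.53-fold, adjusted p = 0.0171). The calls on IL1R1 and TNFAIP8 were kept in all 13 alternatives, that of TNFSF10 in 12, CFLAR in 10 and TNFRSF10A in 8. The median log2 fold change of the 75 genes was 0.06 in this comparison, beside -0.00 over all genes tested.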

How the data were processed

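RNA was isolated with TRIzol and made into Illumina TruSeq stranded mRNA libraries, per the labels' protocols. The authors deposited raw counts, whole reads per gene for each of 18 libraries, with 5 entries for reads of no gene, which were left out of library sizes and tests. HISAT2, SAMtools, HTSeq and GRCh38 are named, without versions, per the submitters' processing notes. The sources used here do not name the annotation or the strand setting. Symbols came from a gene name table, and positions and exon lengths from GENCODE release 29.

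Genes were filtered with edgeR's filterByExpr on group and scaled by TMM. One mean per group was fitted over 18 libraries (edgeR 4.0.16, R 4.3.3), with two-sided quasi-likelihood tests and Benjamini-Hochberg adjustment. Each SE given was derived from the test, as the absolute log2 fold change divided by the square root of the F statistic. The script was tested on simulated data. CPM are TMM-scaled, and the likeness of profiles was taken on log2 CPM with a prior count of 2 over genes with a mean of at least 1. Alternatives were DESeq2 1.42.0, limma-voom (limma 3.58.1), RLE scaling, no filter, only the groups compared, a replicate block and leaving out each library.

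All 10 genes were described whatever their change. Of the other pathway genes that passed, up to 3 per direction were named per comparison, those with the smallest adjusted p. TNFAIP8 was named in addition for unedited R369W against ETV6. Members and lists were chosen with earlier results of these data known. The comparisons between genotypes with ETV6 and with R369W, the fit without the 6 libraries that stood apart and the block on the 6 knockout EV and ETV6 libraries were added after seeing the data. The fit without those 6 libraries is tilted toward differences between the genotypes, since it drops the libraries nearest the other genotype. The design text states biological replicates, but what the replicate numbers stand for is not stated. If libraries of a group came from 1 culture, p-values measure only the spread between them.

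Whether numbers pair libraries was checked by the correlation of deviations from group means over genes. Same-numbered unedited libraries had r = 0.736 to 0.901 and others at most 0.081, so the blocked fits took unedited numbers as pairs. The reported tests, with 1 mean per group, left this pairing out. Knockout EV and ETV6 libraries of 1 number had r = 0.792 to 0.869. Knockout R369W libraries had r = -0.566 to -0.149 with those of their own number and r = 0.722 to 0.891 with those of another number, so their numbers do not pair them. The blocked fits over all knockout libraries and between genotypes still used the labelled numbers of these 3 libraries. The second deposited file, a list of libraries, was not used.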

Additional observations from a re-analysis of the deposited data

How the results depend on the processing

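Across the 84 log2 fold changes of the 10 genes that were followed and 1138 values under alternatives, 986 kept their direction and their side of the threshold, 53 lost a call, 28 gained one and 71 changed sign. None that changed sign was called in the reported fit or in the alternative. With 3 libraries per group, 1 library often decided a call, and a p that misses the threshold does not show equal levels. The cause of these changes was not tested, except that fits on the compared groups and with libraries left out hold fewer samples. Unedited ICAM1 with ETV6 rests on 64 reads. The block changed no call of the 10 genes beyond those given with the results, and where knockout R369W libraries entered, it used numbers that do not pair them.

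The number of genes past the threshold was 37 for unedited ETV6 against EV, 3 for unedited R369W against EV, 147 for unedited R369W against ETV6, 531 for the genotypes with EV, 224 for knockout ETV6 against EV, 7 for knockout R369W against EV, 151 for knockout R369W against ETV6, 3 for the difference in the ETV6 effect, 5 for the difference in the R369W effect, 310 for the genotypes with ETV6 and 513 for the genotypes with R369W. With DESeq2 it was 89 for unedited ETV6 against EV, 13 for unedited R369W against EV, 287 for unedited R369W against ETV6, 893 for the genotypes with EV, 401 for knockout ETV6 against EV, 195 for knockout R369W against EV, 362 for knockout R369W against ETV6, 13 for the difference in the ETV6 effect, 14 for the difference in the R369W effect, 741 for the genotypes with ETV6 and 1010 for the genotypes with R369W. With limma-voom it was 1 for unedited R369W against EV and 161 for the genotypes with ETV6. With a fit on the compared groups alone it was 2 for unedited ETV6 against EV, 1 for unedited R369W against EV, 35 for unedited R369W against ETV6, 211 for the genotypes with EV, 131 for knockout ETV6 against EV, 0 for knockout R369W against EV, 73 for knockout R369W against ETV6, 1 for the difference in the R369W effect, 80 for the genotypes with ETV6 and 89 for the genotypes with R369W. With the replicate block it was 956 for unedited ETV6 against EV, 251 for unedited R369W against EV, 1980 for unedited R369W against ETV6, 979 for the genotypes with EV, 97 for knockout ETV6 against EV, 0 for knockout R369W against EV, 75 for knockout R369W against ETV6, 1002 for the genotypes with ETV6 and 1591 for the genotypes with R369W. With the 6 libraries that stood apart left out it was 1818 for the genotypes with EV, 3 for the difference in the R369W effect, 1349 for the genotypes with ETV6 and 1725 for the genotypes with R369W. In the 6 knockout EV and ETV6 libraries alone the replicate block gave 2904 genes and 5 of the 10. Leaving out 1 library gave 11 to 41 for unedited ETV6 against EV, 2 to 6 for unedited R369W against EV, 90 to 131 for unedited R369W against ETV6, 246 to 577 for the genotypes with EV, 132 to 161 for knockout ETV6 against EV, 3 to 11 for knockout R369W against EV, 89 to 130 for knockout R369W against ETV6, 0 to 6 for the difference in the R369W effect, 116 to 310 for the genotypes with ETV6 and 138 to 880 for the genotypes with R369W. With DESeq2 the count among the 10 genes was 4 for the genotypes with R369W. With limma-voom the count among the 10 genes was 1 for unedited ETV6 against EV, 0 for the genotypes with ETV6 and 1 for the genotypes with R369W. With a fit on the compared groups alone the count among the 10 genes was 0 for unedited ETV6 against EV, 0 for unedited R369W against ETV6, 1 for the genotypes with EV, 1 for knockout ETV6 against EV, 1 for knockout R369W against ETV6 and 0 for the genotypes with ETV6. With the replicate block the count among the 10 genes was 2 for unedited R369W against EV, 4 for unedited R369W against ETV6, 1 for knockout ETV6 against EV, 1 for knockout R369W against ETV6 and 2 for the genotypes with R369W. With the 6 libraries that stood apart left out the count among the 10 genes was 1 for unedited ETV6 against EV, 1 for knockout ETV6 against EV, 1 for knockout R369W against ETV6, 4 for the genotypes with ETV6 and 3 for the genotypes with R369W. Leaving out 1 library put the count among the 10 at 0 to 2 for unedited ETV6 against EV, 2 to 4 for the genotypes with EV, 1 to 2 for knockout ETV6 against EV, 1 to 2 for knockout R369W against ETV6, 0 to 2 for the genotypes with ETV6 and 0 to 1 for the genotypes with R369W.

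These reversals had no call under either setting. They were RELB at 0.010 for unedited ETV6 against EV (limma-voom), RELB at 0.086 for unedited ETV6 against EV (the 6 libraries that stood apart left out), BIRC3 at -0.12 for unedited R369W against EV (limma-voom), BIRC3 at -0.27 for unedited R369W against EV (the 6 libraries that stood apart left out), NFKB2 at 0.00022 for unedited R369W against ETV6 (no filter on low counts), NFKB2 at 0.0041 for unedited R369W against ETV6 (a fit on the compared groups alone), BIRC3 at -0.091 for unedited R369W against ETV6 (the 6 libraries that stood apart left out), NFKB2 at -0.10 for the genotypes with EV (the replicate block), NFKB1 at 0.057 for the genotypes with EV (the 6 libraries that stood apart left out), NFKB1 at -0.035 for knockout R369W against EV (the 6 libraries that stood apart left out) and CD83 at 0.042 for the genotypes with ETV6 (the 6 libraries that stood apart left out). Leaving out 1 library moved further log2 fold changes without a call across 0. For unedited ETV6 against EV, the ranges were RELB from -0.25 to 0.21, TNFAIP2 from -0.65 to 0.090, NFKB1 from -0.11 to 0.0017, NFKB2 from -0.47 to 0.36, TNFAIP3 from -0.54 to 0.26 and BIRC3 from -0.58 to 0.20. For unedited R369W against EV, the ranges were BIRC3 from -0.67 to 0.43, NFKB2 from -0.51 to 0.36, RELB from -0.55 to 0.0031 and TNFAIP3 from -0.42 to 0.28. For unedited R369W against ETV6, the ranges were TNFAIP3 from -0.34 to 0.48, BIRC3 from -0.47 to 0.61, NFKB2 from -0.44 to 0.40, NFKB1 from -0.12 to 0.0040 and RELB from -0.53 to 0.010. For the genotypes with EV, the ranges were NFKB2 from -0.18 to 0.48 and RELB from -0.030 to 0.52. For knockout ETV6 against EV, the ranges were RELB from -0.54 to 0.0051, TNFAIP3 from -0.59 to 0.21 and TNFAIP2 from -0.77 to 0.15. For knockout R369W against EV, the ranges were TNFAIP3 from -0.50 to 0.071, NFKB1 from -0.082 to 0.072, NFKBIA from -0.22 to 0.059, CD83 from -0.090 to 0.012 and TNFAIP2 from -0.13 to 0.63. For knockout R369W against ETV6, the ranges were TNFAIP3 from -0.38 to 0.33, RELB from -0.49 to 0.13 and NFKB2 from -0.0033 to 0.25. For the difference in the ETV6 effect, the ranges were TNFRSF1A from -0.025 to 0.20 and ICAM1 from -0.86 to 0.052. For the difference in the R369W effect, the ranges were TNFRSF1A from -0.11 to 0.029. For the genotypes with ETV6, the ranges were CD83 from -0.052 to 0.046.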
